A study of Homo sapiens with 6 samples.

Results

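Cyclins bind and switch on the cyclin-dependent kinases (CDKs) that drive the cell cycle, and p27, the product of CDKN1B, binds cyclin-CDK complexes and holds them inactive. D-type cyclins act early in G1 and relay growth signals to the retinoblastoma protein, E-type cyclins act at the entry into S phase, A-type cyclins in S phase and G2, and B-type cyclins in mitosis. Amplification of cyclin genes, CCNE1 above all, is a known feature of ovarian carcinoma, and p27 is controlled to a large part by protein turnover, which an RNA measurement does not see.

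The members were all probes of the array whose annotated symbol was CCNA1, CCNA2, CCNB1, CCNB2, CCND1, CCND2, CCND3, CCNE1, CCNE2 or CDKN1B, which came to 13 probes of 10 genes among 47231 probes and 20046 named genes. They were measured in SKOV3, an established human ovarian carcinoma cell line, after 48 h with siNRCP, an siRNA against the long non-coding RNA NRCP, or with sicontrol, a control siRNA. Each group had 3 samples, read on 1 Illumina BeadArray each from 500 ng of total RNA. All samples came from 1 line, the labels do not give the siRNA sequences, and nothing says that the replicates were separate cultures, so each p-value is about the spread among these 6 samples, part or all of which may be technical. The genes were chosen by family, with the siNRCP minus sicontrol differences of these arrays already known, the decrease of CCNA1 above all. The values of the members in the contrast are therefore a description. The adjusted p-values given for members other than CCNA1 place them in the fit over all probes and support nothing about the choice of genes.

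Intensities were corrected for background, quantile normalized and put on a log2 scale, and a probe counted as changed at a limma adjusted p under 0.05 over all 47231 probes. The siNRCP arrays had a mean raw intensity of 554, 373 and 486 in the order 1 to 3, and the sicontrol arrays had 555 to 563. The siNRCP arrays were less alike than the sicontrol arrays, with a mean correlation to the other arrays of the group of 0.942, 0.964 and 0.970 for siNRCP arrays 1, 2 and 3, against 0.991 to 0.994 for the sicontrol arrays. siNRCP array 1 stood farthest apart, so values that rest on it are also given without it. That fit called 9932 of all probes, so a pass in it is no separate support for a gene. Of 9 markers of epithelial and ovarian carcinoma cells 8 were above background on at least 3 arrays (WT1 was on none) and 1 of the 9, MSLN, was called lower in siNRCP at -0.65 log2 (limma adjusted p = 0.043). That call was lost when any array other than siNRCP array 1 was left out (-0.73 to -0.60, adjusted p 0.10 to 0.21). Those fits called from 11 to 188 of all probes, beside 781 with all arrays. Of the markers of other cells, 2 of 4 for fibroblasts, 0 of 3 for leukocytes and 1 of 3 for endothelium were above background on at least 3 arrays, and 0 of these 10 were called in limma, with 0 also at an unadjusted p under 0.05.

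Each array was given a background level from 437 probes of olfactory receptor genes, set at their 95th percentile, which lay between 6.43 and 6.49 log2 on the siNRCP arrays and between 6.41 and 6.43 on the sicontrol arrays. Of the 13 member probes 9, from 8 genes, exceeded it on all 6 arrays. The other 4 probes, of CCND2, CCNE2 and a second probe of CCNE1, exceeded it on fewer than 3 arrays.

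CCNA1, a cyclin A best known from male germ cells, was far lower in siNRCP. CCNA2, the cyclin A of dividing somatic cells, was slightly higher on every siNRCP array after quantile normalization, but was not called. The probe of the G1 cyclin gene CCND3, the CCNE1 probe above background and both CDKN1B probes were lower on every siNRCP array. Their group means were 1.34-fold to 1.78-fold lower in siNRCP. The second CCNE1 probe had overlapping groups. The mitotic cyclin genes CCNB1 and CCNB2 and the D-type cyclin gene CCND1 had overlapping groups. In the fit over all arrays 1 of the 13 member probes was called (CCNA1), where 1.65% of all probes were called, 0.739% as higher and 0.915% as lower in siNRCP. All 781 called probes were among the 20027 above background on at least 3 arrays, so shares over all probes are low for expressed genes. On 6 of the 13 the groups did not overlap, 5 of them lower and 1 higher in siNRCP, and 17.8% of all probes did not overlap. Without siNRCP array 1, 5 of the 13 were called, all lower, where 21% of all probes were called. Because RNA was taken from whole cultures, fewer cells in a phase of the cycle and less RNA per cell cannot be told apart for any of these genes.

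**Figure D1:**
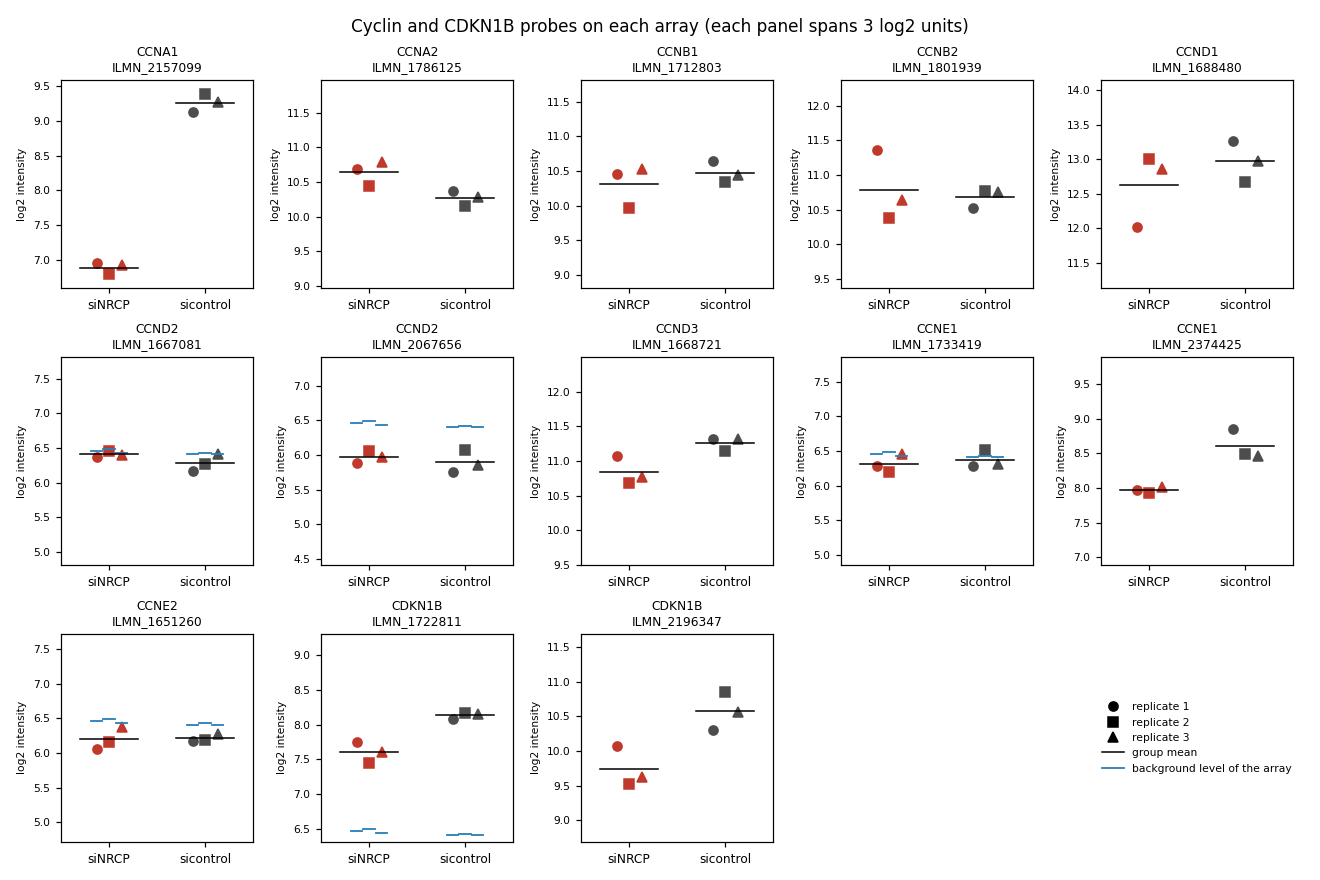
Log2 intensity (vertical axis) of each of the 13 member probes on the siNRCP arrays (left in each panel, red) and the sicontrol arrays (right, grey), with group means as black lines and each array's background level as blue lines where it falls inside the panel. Every panel spans the same range of log2 units. CCNA1 shows the widest gap between groups, and the CCND2, CCNE2 and first CCNE1 probes lie near or under the background level.

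The CCNA1 probe (ILMN_2157099) read 6.95, 6.79 and 6.92 log2 on siNRCP arrays 1 to 3, against 9.13, 9.39 and 9.28 on sicontrol arrays 1 to 3. The raw intensities were 179, 136 and 169 in siNRCP and 699, 743 and 721 in sicontrol. The nearest arrays of the 2 groups were 2.18 log2 units apart, and the siNRCP arrays stayed just above the background level. The difference was -2.38 ± 0.10 log2 (SE, n = 3 per group; 95% interval -2.62 to -2.14; 5.19-fold lower in siNRCP). By the size of the decrease it ranked 5 of 47231 probes. The 3 siNRCP arrays gave -2.32, -2.47 and -2.34 against the sicontrol mean, so CCNA1 did not set siNRCP array 1 apart, and without that array the difference was -2.41 ± 0.12.

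CCNA2 (ILMN_1786125) partners CDK2 in S phase and CDK1 in G2. It read 10.69, 10.44 and 10.79 log2 on siNRCP arrays 1 to 3, against 10.37, 10.15 and 10.28 on sicontrol arrays 1 to 3. The raw intensities were 1835, 976 and 1769 in siNRCP and 1585, 1244 and 1407 in sicontrol, so siNRCP array 2 was the lowest before normalization. On the normalized scale all siNRCP arrays lay above all sicontrol arrays, with a gap of 0.0739 log2 between siNRCP array 2 and sicontrol array 1. The difference was 0.37 ± 0.12 (SE, n = 3 per group; 95% interval 0.10 to 0.65), which did not pass (limma adjusted p = 0.21). It was 0.35 ± 0.13 without siNRCP array 1 (0.064) and 0.13 ± 0.23 (0.89) under median scaling, which aligns only the medians of the arrays in place of quantile normalization.

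The 2 cyclin A genes encode the same type of cyclin and had differences of opposite sign, though that of CCNA2 did not pass. Their promoter windows, from RefSeq (GRCh38.p14), are printed here for that reason. Each runs 5′ to 3′ on the strand of the gene, from 250 bases before to 50 after the start site used in that table, with CCNA1 at chr13:36431705-36432004 (plus strand) and CCNA2 at chr4:121823834-121824133 (minus strand). Capitals mark matches on either strand to CCAAT, the box bound by NF-Y, to GGGCGG, the GC box bound by Sp1-type factors, to TTTGAA, the core of the cell cycle genes homology region, and to CTTGAA, the same core with another first letter.
CCNA1: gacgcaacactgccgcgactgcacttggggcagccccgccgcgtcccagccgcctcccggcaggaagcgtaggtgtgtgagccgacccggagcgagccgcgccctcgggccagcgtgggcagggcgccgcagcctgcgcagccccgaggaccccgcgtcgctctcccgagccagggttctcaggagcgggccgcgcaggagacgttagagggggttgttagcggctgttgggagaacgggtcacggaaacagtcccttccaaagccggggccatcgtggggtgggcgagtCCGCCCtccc
CCNA2: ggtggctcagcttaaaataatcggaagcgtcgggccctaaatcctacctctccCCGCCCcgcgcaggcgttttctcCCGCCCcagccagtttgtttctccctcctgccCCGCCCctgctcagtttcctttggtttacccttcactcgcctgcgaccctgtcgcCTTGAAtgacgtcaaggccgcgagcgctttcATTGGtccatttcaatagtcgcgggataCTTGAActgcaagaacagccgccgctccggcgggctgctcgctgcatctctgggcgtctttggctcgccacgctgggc
The CCNA1 window was 72.7% G and C and held 1 GC box and none of the other letters searched (0 CCAAT, 0 TTTGAA and 0 CTTGAA). The CCNA2 window was 61% G and C and held 1 CCAAT on the opposite strand with its left end at -56, 3 GC boxes, and CTTGAA with its left end at -87 and at -28. No matches overlapped in these windows. Among all 35116 RefSeq windows of this length, 34.6% held CCAAT, 45% GGGCGG, 15.2% TTTGAA and 11.2% CTTGAA. A match describes letters and is not a site of binding, and no link between the letters and the differences was tested.

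Of the D-type cyclin genes CCND3 and CCND1 were above background, and neither passed with all arrays. CCND3 (ILMN_1668721), a D-type cyclin that pairs with CDK4 and CDK6, read 11.07, 10.68 and 10.77 log2 on siNRCP arrays 1 to 3, against 11.32, 11.15 and 11.32 on sicontrol arrays 1 to 3. The groups did not overlap, and siNRCP array 1 lay nearest to the sicontrol arrays. The difference was -0.42 ± 0.12 (SE, n = 3 per group; 95% interval -0.71 to -0.13), which did not pass (limma adjusted p = 0.18), whereas without siNRCP array 1 it was -0.54 ± 0.11 and passed (0.0019). With any other array left out it was -0.48 to -0.34 (limma adjusted p 0.38 to 0.52), and under median scaling -0.68 ± 0.23 (0.31).

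CCND1 (ILMN_1688480), the D-type cyclin most often amplified in carcinomas, read 12.01, 13.01 and 12.85 log2 on siNRCP arrays 1 to 3, against 13.26, 12.68 and 12.98 on sicontrol arrays 1 to 3. Only siNRCP array 1 fell outside the sicontrol range, and siNRCP arrays 2 and 3 lay within it. The difference was -0.35 ± 0.27 (95% interval -0.98 to 0.28; limma adjusted p = 0.66), and it was -0.04 ± 0.15 (0.91) without siNRCP array 1 and -0.70 ± 0.17 (0.15) under median scaling. The intervals of CCND1 and CCND3 overlap, and the difference between the 2 genes was not tested. CCND2, the remaining D-type cyclin, read 6.36, 6.45 and 6.40 log2 on siNRCP arrays 1 to 3, against 6.17, 6.26 and 6.41 on sicontrol arrays 1 to 3 (ILMN_1667081). That probe exceeded background on 0 siNRCP arrays and 1 sicontrol array, and the second CCND2 probe (ILMN_2067656, 5.89 to 6.05 in siNRCP and 5.76 to 6.07 in sicontrol) on 0 arrays, so a change in CCND2 was not detectable here.

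CCNE1, the cyclin that carries cells into S phase with CDK2, was read by a bright and a dim probe. The bright one (ILMN_2374425) read 7.98, 7.92 and 8.02 log2 on siNRCP arrays 1 to 3, against 8.86, 8.49 and 8.47 on sicontrol arrays 1 to 3. All siNRCP arrays were below all sicontrol arrays and lay within 0.0965 log2 of each other. The difference was -0.63 ± 0.12 (SE, n = 3 per group; 1.55-fold lower in siNRCP; limma adjusted p = 0.057), just outside the threshold. It was -0.64 ± 0.13 without siNRCP array 1 (0.0015), and -0.70 to -0.51 with any other array left out (limma adjusted p 0.15 to 0.20). Under median scaling it was -0.84 ± 0.18 (0.12), and with trend and robust options -0.63 ± 0.19 (0.15). The dim probe (ILMN_1733419) exceeded background on 1 siNRCP array and 1 sicontrol array and read -0.06 ± 0.11 (0.89), so it bears little on the other. CCNE2, the second E-type cyclin gene (ILMN_1651260), exceeded background on 0 arrays, with 6.06, 6.16 and 6.38 log2 on siNRCP arrays 1 to 3, against 6.17, 6.19 and 6.27 on sicontrol arrays 1 to 3.

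The B-type cyclin genes, whose products drive entry into mitosis with CDK1, showed no difference beyond their spread. CCNB1 (ILMN_1712803) read 10.46, 9.97 and 10.53 log2 on siNRCP arrays 1 to 3, against 10.65, 10.34 and 10.44 on sicontrol arrays 1 to 3. CCNB2 (ILMN_1801939) read 11.36, 10.38 and 10.63 log2 on siNRCP arrays 1 to 3, against 10.52, 10.77 and 10.75 on sicontrol arrays 1 to 3. siNRCP array 2 was low for CCNB1, and siNRCP array 1 was high for CCNB2 while the other two siNRCP arrays were not. The differences were -0.16 ± 0.16 for CCNB1 (95% interval -0.54 to 0.23; limma adjusted p = 0.77) and 0.11 ± 0.24 for CCNB2 (-0.44 to 0.66; 0.91). The CCNB2 difference turned to -0.17 ± 0.12 without siNRCP array 1 and to -0.13 under median scaling, where CCNB1 read -0.39 ± 0.29 (0.67).

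CDKN1B was lower in siNRCP on both of its probes without passing the threshold. The brighter probe (ILMN_2196347) read 10.06, 9.53 and 9.62 log2 on siNRCP arrays 1 to 3, against 10.31, 10.85 and 10.56 on sicontrol arrays 1 to 3. The dimmer probe (ILMN_1722811) read 7.75, 7.45 and 7.60 on siNRCP arrays 1 to 3, against 8.09, 8.17 and 8.16 on sicontrol arrays 1 to 3. Neither probe's groups overlapped, and siNRCP array 1 was the highest of the siNRCP arrays on both. The differences were -0.83 ± 0.18 (SE, n = 3 per group; 1.78-fold lower in siNRCP; limma adjusted p = 0.086) and -0.54 ± 0.10 (1.45-fold; 0.056). Without siNRCP array 1 both passed, at -0.998 ± 0.14 (5.6e-05) and -0.61 ± 0.11 (0.00053). With any other array left out neither passed, at -0.97 to -0.70 (limma adjusted p 0.16 to 0.35) and -0.56 to -0.46 (0.16 to 0.275). The 2 probes were read on the same arrays from the same RNA and are not replicates of each other.

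The CDKN1B window is shown as the promoter of the inhibitor, from the same RefSeq table and with the same letters in capitals, at chr12:12717118-12717417 (plus strand, GRCh38.p14).
CDKN1B: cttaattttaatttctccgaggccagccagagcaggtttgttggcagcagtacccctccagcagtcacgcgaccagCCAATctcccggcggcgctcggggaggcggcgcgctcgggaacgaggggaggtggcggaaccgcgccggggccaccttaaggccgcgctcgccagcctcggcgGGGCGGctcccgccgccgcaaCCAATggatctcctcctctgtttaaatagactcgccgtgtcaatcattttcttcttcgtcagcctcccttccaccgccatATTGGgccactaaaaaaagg
It was 62.3% G and C and held CCAAT 3 times, with the left ends at -174 and -50 and, on the opposite strand, at 30, and 1 GC box at -71. It held 0 TTTGAA and 0 CTTGAA, like the CCNA1 window.

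**Figure D2:**
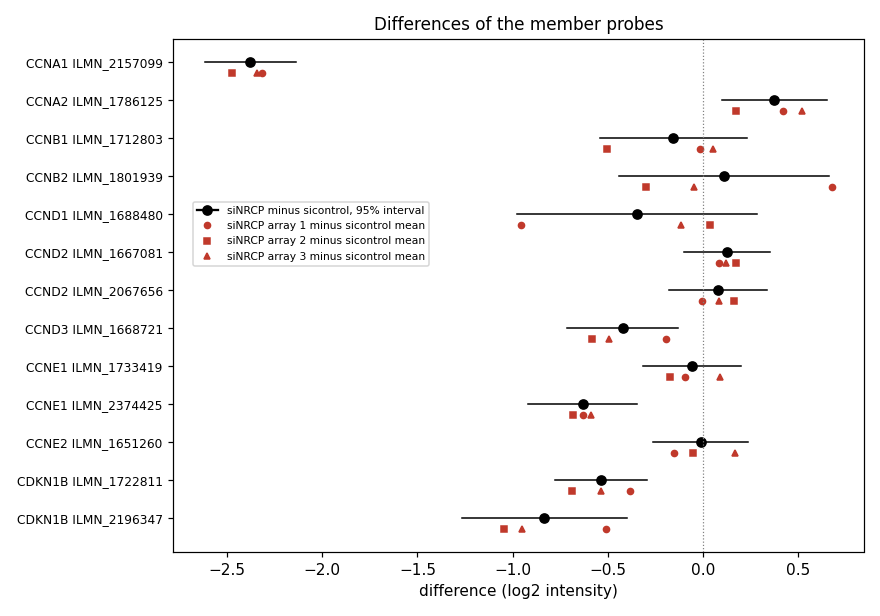
Difference of each member probe in log2 intensity (horizontal axis), with siNRCP minus sicontrol as black points with 95% intervals and each siNRCP array minus the sicontrol mean as red symbols below them. The 3 siNRCP arrays agree closely for CCNA1 and the bright CCNE1 probe, while siNRCP array 1 stands away from the other two for CCNB2, CCND1 and the brighter CDKN1B probe.

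The 13 member probes had a median difference of -0.16 log2, beside 0.00348 over all 47231 probes, and it was -0.17 without siNRCP array 1. Of the differences 9 were below 0 and 4 above 0. An unadjusted limma p under 0.05 was reached by 6 of the 13, of which 5 were lower in siNRCP, and by 13.8% of all probes. All 6 were among the 9 member probes above background on all 6 arrays. In the fit on the 20027 probes above background on at least 3 arrays, 4561 reached that p.

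The other CDK inhibitors were measured beside CDKN1B. CDKN1A, which encodes p21, the p53-induced relative of p27, read 8.24, 7.97 and 7.93 log2 on siNRCP arrays 1 to 3, against 9.35, 9.81 and 9.42 on sicontrol arrays 1 to 3 (ILMN_1784602). It fell by 1.48 ± 0.15 (SE, n = 3 per group, with a limma adjusted p of 0.0094), while its second probe exceeded background on 0 arrays. CDKN1C, which encodes p57, the remaining inhibitor of the p27 family, read 7.08, 6.83 and 6.90 log2 on siNRCP arrays 1 to 3, against 8.10, 8.40 and 8.29 on sicontrol arrays 1 to 3 (ILMN_1718565). It fell by 1.33 ± 0.12 (adjusted p = 0.0076). The gaps between the groups were 1.11 log2 for CDKN1A and 1.01 for CDKN1C. On these 2 probes, as on both CDKN1B probes, every siNRCP array was lower than any sicontrol array. The groups did not overlap, in either direction, on 17.8% of all probes. Both calls were lost without sicontrol array 1 (CDKN1A -1.56, adjusted p = 0.069; CDKN1C -1.41, 0.057), sicontrol array 2 (-1.34, 0.067; -1.26, 0.067), sicontrol array 3 (-1.53, 0.095; -1.31, 0.095) or siNRCP array 3 (-1.42, 0.056; -1.31, 0.051). Those fits called 12, 18, 11 and 39 of all probes in that order, beside 781 with all arrays. Both calls held without siNRCP array 2 (CDKN1A -1.44, limma adjusted p = 0.042; CDKN1C -1.27, 0.031) and without siNRCP array 1 (-1.58 and -1.40). Of the INK4 inhibitors, which bind CDK4 and CDK6, CDKN2D read 0.08 ± 0.17 (0.91), CDKN2A exceeded background on 0 arrays and CDKN2B on 1. Over the 5 inhibitor genes measured beside CDKN1B 2 fell and 0 rose, where 559 of 20046 named genes with 1 probe each were called. Their median of -0.14 is the value of CDKN2B, which was above background on only 1 array.

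Among the 13 genes of the retinoblastoma (RB) family and the E2F factors 1 fell and 0 rose in limma, where 1.65% of all probes were called. At an unadjusted p under 0.05, 8 were higher and 1 lower in siNRCP. That p was reached by 13.8% of all probes, and by 4561 in the fit on the 20027 probes above background on at least 3 arrays. The one that fell was E2F5 (ILMN_1782551), an E2F that represses cell cycle genes together with RB relatives, with 7.78, 7.67 and 7.75 log2 on siNRCP arrays 1 to 3, against 9.48, 9.55 and 9.42 on sicontrol arrays 1 to 3. It fell by 1.75 ± 0.09 (SE, n = 3 per group, with a limma adjusted p of 0.0011) and passed whichever of the 6 arrays was left out. RB1, which encodes the retinoblastoma protein, read 0.45 ± 0.22 (0.43; 0.70 without siNRCP array 1, 0.00035; 0.23 under median scaling, 0.71) and E2F1, an activator of S phase genes, read -0.18 ± 0.15 (0.68). RB1 did not pass with any other array left out (0.26 to 0.51, limma adjusted p 0.55 to 0.78). The list had a median of 0.38, beside 0.01 over 20046 named genes with 1 probe each. Without siNRCP array 1 its median was 0.45, with 8 genes higher and 1 lower, where 21% of all probes were called.

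The CDKs and the enzymes that activate or inhibit them held 12 genes, with a median of -0.28. Of these 0 passed in limma, where 1.65% of all probes were called. At an unadjusted p under 0.05, 4 were higher and 5 lower in siNRCP. That p was reached by 13.8% of all probes, and by 4561 in the fit on the 20027 probes above background. CDK6 and CDK4, the kinase partners of the D-type cyclins, had differences of opposite sign. CDK6 read 11.09, 11.82 and 11.76 log2 on siNRCP arrays 1 to 3, against 11.06, 10.69 and 10.82 on sicontrol arrays 1 to 3, a difference of 0.70 ± 0.20 (limma adjusted p = 0.18). CDK4 read 11.67, 10.87 and 11.23 log2 on siNRCP arrays 1 to 3, against 12.02, 11.75 and 11.81 on sicontrol arrays 1 to 3, a difference of -0.60 ± 0.20 (0.22). For both genes siNRCP array 1 lay nearest to the sicontrol arrays, and without it both passed (CDK6 0.93, 3.4e-05; CDK4 -0.81, 0.00019). Neither passed with any other array left out (CDK6 0.57 to 0.80, limma adjusted p 0.31 to 0.53; CDK4 -0.66 to -0.41, 0.47 to 0.525). Under median scaling CDK6 read 0.42 (0.40). CDK1, the partner of the B-type cyclins, read -0.38 ± 0.20 (0.46; -0.58 without siNRCP array 1, 0.0035; -0.62 under median scaling, 0.51), and CDK2, the partner of cyclins E and A, read 0.08 ± 0.11 (0.82) and -0.17 under median scaling. CDK1 did not pass with any other array left out (-0.45 to -0.19, limma adjusted p 0.63 to 0.81). The second probes of these genes read -0.46 ± 0.26 (0.50) for CDK1 and 0.11 ± 0.09 (0.71) for CDK2. Without siNRCP array 1, 2 genes of this list were higher and 6 lower, where 21% of all probes were called.

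Of 12 genes whose products degrade cyclins and p27 or assist in it, 0 passed in limma, where 1.65% of all probes were called. The median was -0.01. At an unadjusted p under 0.05, 3 were higher and 1 lower. That p was reached by 13.8% of all probes, and by 4561 in the fit on the 20027 probes above background. SKP2, the ubiquitin ligase subunit that recognises p27, read 0.08 ± 0.14 (limma adjusted p = 0.88), which turned to -0.19 under median scaling. The other SKP2 probes read 0.28 ± 0.25 (0.72) and, near background, -0.04 ± 0.09 (0.91). CKS1B is the cofactor of SKP2 in recognising p27. It read 11.16, 9.46 and 9.55 log2 on siNRCP arrays 1 to 3, against 10.86, 11.11 and 11.02 on sicontrol arrays 1 to 3. siNRCP array 1 was above the sicontrol arrays and the other two were far below them, so that the difference was -0.94 ± 0.42 (0.38) with all arrays and -1.49 ± 0.12 (3.1e-07) without siNRCP array 1. With any other array left out the difference was -1.01 to -0.64 (limma adjusted p 0.56 to 0.74). The second CKS1B probe gave -0.86 ± 0.43 (0.45) and -1.42 without siNRCP array 1. Of 12 other cyclin genes 0 passed, with a median of -0.02. At an unadjusted p under 0.05, 1 was higher and 4 lower, beside the 13.8% of all probes. Of 9 genes of FOXM1 and the MYB-MuvB complex, which switch on mitotic cyclin genes, 0 passed, with a median of 0.11. At an unadjusted p under 0.05, 3 were higher and 1 lower, again beside 13.8% of all probes. FOXM1 read 0.54 ± 0.18 (0.22) on its brighter probe and 0.34 ± 0.14 (0.34) on the other, with 0.31 (0.56) for the brighter one under median scaling. The brighter probe passed at 0.71 without siNRCP array 1 (0.00048). It did not pass with any other array left out (0.42 to 0.62, limma adjusted p 0.36 to 0.60).

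**Figure D3:**
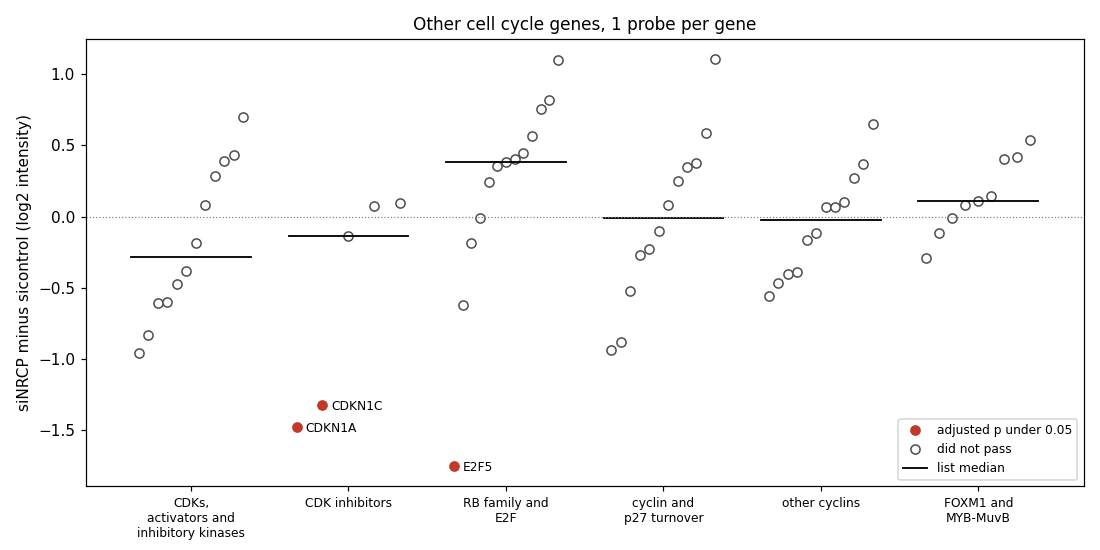
Difference siNRCP minus sicontrol in log2 intensity (vertical axis) of the genes of 6 cell cycle lists (horizontal axis), 1 probe per gene, with filled points for an adjusted p under 0.05 and black lines for list medians. The filled points are CDKN1A, CDKN1C and E2F5, all below 0.

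The 5 named genes whose pattern over the 6 arrays was most like that of CCNA1 were sought among 4120 probes above background on at least 3 arrays and with a range of at least 1 log2, and are a description without a test. They were E2F5 (Pearson r = 0.998), MACROH2A1, a histone variant gene (0.998), PON2, a lactonase gene (0.998), MMP1, a collagenase gene (0.997), and PSAT1, a serine synthesis gene (0.997). The correlations rest on 6 arrays in 2 groups, and 164 of the 4120 probes exceeded 0.95. Their differences were -1.75, -1.68, -1.26, -2.87 and -1.47 log2 in that order, beside -2.38 for CCNA1. siNRCP array 2 was the lowest of the 6 for CCNA1, E2F5, MACROH2A1, PON2 and PSAT1, and siNRCP array 3 for MMP1.

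**Figure D4:**
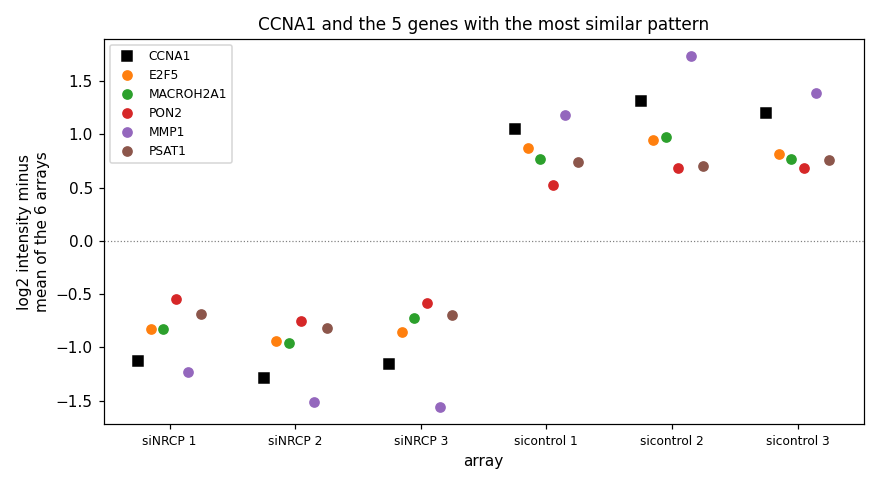
Log2 intensity minus the mean of the 6 arrays (vertical axis) for CCNA1 (black squares) and the 5 genes most like it (circles) on each array (horizontal axis). All 6 genes lie below 0 on the 3 siNRCP arrays and above 0 on the 3 sicontrol arrays.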

How the data were processed

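RNA from 3 siNRCP and 3 sicontrol samples was read on Illumina BeadArrays. The deposited non-normalized table held bead intensity per probe and array, exported with BeadStudio per the submitters' processing notes (its version is not given in the sources used here). A deposited series matrix gave log2 values of the same arrays, quantile normalized by the authors as its equal quartiles show. Probes were named through the platform annotation by Entrez identifier: 30113 of 47231 probes carried 1 symbol, 8 several and 17110 none, and 30074 matched RefSeq.

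Intensities were corrected with normexp (offset 50), quantile normalized, put on the log2 scale and tested with limma 3.58.1 under R 4.3.3 (lmFit, eBayes). The contrast was siNRCP minus sicontrol without covariate or filter, and p-values were adjusted by Benjamini-Hochberg over all probes. Differences carry the moderated standard error (SE). The table carries no detection p-values, so a level from 437 olfactory receptor probes stood for background. List genes were read by their brightest probe.

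The members, lists and tests were chosen with earlier results of these data known. Named were all member probes, every list gene that passed, CDK1, CDK2, CDK4, CDK6, CDKN1A, RB1, E2F1, SKP2, CKS1B and FOXM1, and the 5 genes most like CCNA1. The INK4 genes, MSLN and WT1 were named after their values were seen. The steps were tested on simulated data. Alternatives were to skip the background correction or set its offset to 16, to scale by medians or by cyclic loess, to take the series matrix instead, to use trend and robust in eBayes or array weights, to filter on background, to block on the replicate number, and to leave out each array.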

Additional observations from a re-analysis of the deposited data

How the results depend on the processing

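CCNA1 read between -2.78 and -1.98 log2 over the 15 alternatives, as a description. The number of member probes called was 1 with all arrays, 3 under cyclic loess (CCNA1, with CCNE1 at 0.046 and CDKN1B at 0.047), 6 with array weights, which gave siNRCP array 1 a weight of 0.276, and 1 to 5 when single arrays were left out, with 5 without siNRCP array 1. The number of all probes called was 781 (349 higher and 432 lower in siNRCP), 254 under median scaling (43 higher and 211 lower), 468 with trend and robust options, 8162 with array weights, and from 11 to 9932 when single arrays were left out, with 9932 without siNRCP array 1.

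The labels do not say whether the replicate numbers pair the samples. Deviations from the group mean correlated at -0.64, -0.43 and -0.20 for same-numbered arrays, and from -0.525 to 0.634 for arrays of unlike number. With 3 arrays a group the deviations sum to 0 in each group, so these values are tied together and cannot settle pairing. With the number as a replicate block limma called 0 of all probes and 0 of the members, with 4893 probes at an unadjusted p under 0.05.

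Differences that changed sign were all of probes that did not pass. CCNB2 read -0.13 under median scaling, -0.058 with array weights and from -0.17 to 0.32 when single arrays were left out. The dim CCNE1 probe read 0.025 with array weights and up to 0.013 when single arrays were left out, from a lowest value of -0.13. CCNE2 read 0.077 with array weights and from -0.10 to 0.057 when single arrays were left out. CCNB1 ranged from -0.26 to 0.017 when single arrays were left out. CDK2 read -0.17 and SKP2 -0.19 under median scaling, and SKP2 ranged from -0.0046 to 0.20 when single arrays were left out. The cause of these changes was not tested. The 4 dim member probes were left out by the filter on background. The number of arrays limits the precision, and signal over background limits what the CCND2 and CCNE2 probes could show.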
